A study of Mus musculus with 11 samples.

Results

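Ependymal nuclei were taken from single-nucleus RNA data of mouse brain as those nuclei that the deposited metadata name Glia and in which the summed UMIs (unique molecules) of 6 ciliary genes exceeded those of 6 choroid plexus genes. The ciliary genes were Dnah12, Dnah6, Dnah11, Spag17, Cfap54 and Tmem212, and the choroid plexus genes were Htr2c, Otx2, Kl, Slc4a5, Enpp2 and Folr1. This gave 661 of 1525 Glia nuclei, or 0.599% of all 110304 nuclei. A further 861 Glia nuclei had the larger choroid sum, and 3 had equal sums.

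All groups share 1 genotype, hTfR KI HOM, in which both alleles carry a knock-in of the human transferrin receptor (TfR). Dosing was intravenous, 4 times at weekly intervals, with harvest 72 h later. ATV:BACE1 at 57 mg/kg, a TfR binder with no antisense oligonucleotide (ASO), was the control (n = 3). OTV:Malat1 at 60 mg/kg is a Malat1 ASO on a TfR-binding carrier (n = 3), nonTV:Malat1 at 60 mg/kg is the same kind of conjugate without TfR binding (n = 3), and Malat1 ASO at 2.5 mg/kg is the free oligonucleotide (n = 2, replicates 1 and 5). Every replicate 1 is a female of 2.33 months. The males are replicate 4, aged 2.57 months, and replicate 5, aged 2.33 months. Thus sex and age cannot be told apart from the metadata's batch. The labels give the region as posterior brain, whereas the metadata say cortex and C57BL/6J and name no knock-in.

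Ependymal cells line the brain ventricles and carry tufts of motile cilia that move cerebrospinal fluid. A motile cilium is built on an axoneme whose outer and inner dynein arms drive bending, with a central pair and radial spokes that coordinate the beat, and it is assembled by intraflagellar transport. Foxj1 and the RFX factors are the transcription factors best known for switching on motile cilium genes, and RFX proteins bind a palindromic element called the X-box. An ASO of the RNase H type binds its target RNA, which is then cut, and Malat1 is an abundant long non-coding RNA that stays in the nucleus.

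The 6 ciliary genes summed to a median of 17 UMIs in an ependymal nucleus and the 6 choroid genes to a median of 0. The choroid sum was 0 in 340 of the 661 nuclei and 48 at most. Values near the boundary were rare: 4 ependymal nuclei were 1 to 2 UMIs above equality, 25 were under 5 above, and 3 choroid plexus nuclei were 1 to 2 below. All 6 ciliary genes were seen in 363 ependymal nuclei, 5 of them in 159, and at least 2 in every one, while 170 of the choroid plexus nuclei had none. The nuclei were chosen by these UMI sums, which are given as a description.

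**Figure D1:**
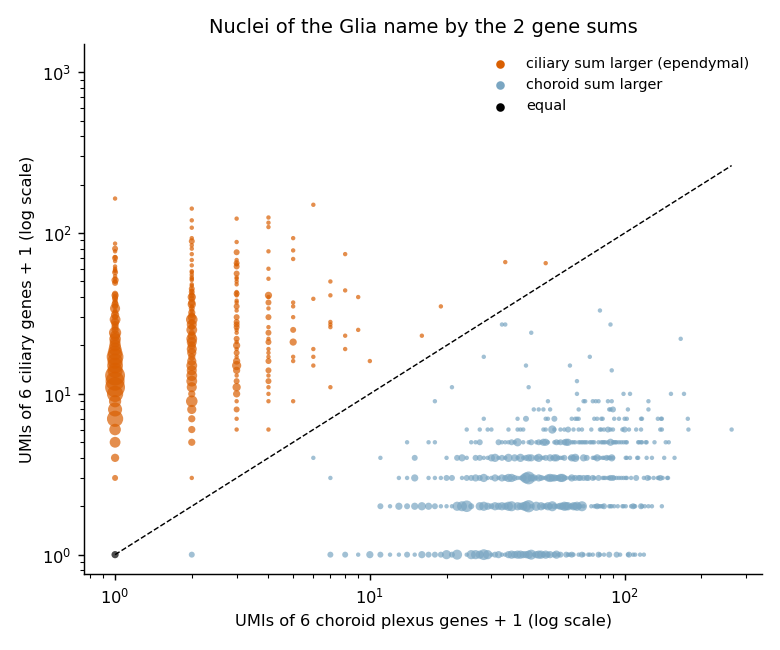
Each point is a pair of sums found among the 1525 Glia nuclei, with its area growing with the number of nuclei; the x axis is the UMI sum of the 6 choroid plexus genes plus 1 and the y axis that of the 6 ciliary genes plus 1, both logarithmic. The 661 ependymal nuclei lie above the dashed line of equality, most with a choroid sum of 0 to a few UMIs, and the 861 choroid plexus nuclei lie below it.

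Libraries held 33 to 79 ependymal nuclei, 147 in ATV:BACE1, 208 in nonTV:Malat1, 191 in OTV:Malat1 and 115 in Malat1 ASO. Their median depth was 2565 UMIs (571 to 12726) and 1709 genes, against 2713 UMIs in choroid plexus nuclei and 2859 over all nuclei. All 661 fell into the authors' cluster 8, whose 2027 nuclei also hold 851 of the choroid plexus nuclei. Another 305 nuclei of that cluster had the larger ciliary sum but other names, 158 of them Astrocytes and 134 Neurons. Their median ciliary sum was 5. Of all nuclei 3011 had a barcode that occurred in more than 1 library, 15 of them ependymal. Among these, 0 shared the barcode with another ependymal nucleus.

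The authors' doublet call marked 125 ependymal nuclei (18.9%), 19.98% of choroid plexus nuclei and 10.4% of all nuclei. Called doublets stayed in, and the main comparisons between groups are also given without them. In ATV:BACE1 they were 39.7%, 17.1% and 30.3% of the ependymal nuclei of replicates 1, 4 and 5, in nonTV:Malat1 27.8%, 10.96% and 6.35%, in OTV:Malat1 15.2%, 21.4% and 16.7%, and in Malat1 ASO 17.4% and 7.25% (replicates 1 and 5). The control was the highest on average, but libraries of all 4 groups overlapped. Called doublets had a median of 6253 UMIs against 2186 in the other ependymal nuclei. The 10 neuron markers summed to 9167 CPM (UMIs scaled to a total of 1000000) in them and to 4753 CPM in the others, and 11 ependymal markers that the rule did not use summed to 4247 and 7332 CPM. Csmd1 alone gave 3110 CPM of the neuron sum in ependymal nuclei and stood at 2521 to 3696 CPM by library without called doublets, so the neuron list is also given without it.

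Among genes at 200 CPM or more, the 20 with the largest ratio of summed CPM were Unc5cl, Dthd1, Zfp474, Wdr49, Ttc29, Dnah12, C230072F16Rik, Gm10714, Lrrc36, Ccdc180, Wdr63, 2010001K21Rik, Spag17, Ccdc170, 4833427G06Rik, Dnah11, Daw1, Frmpd2, Ak9 and Cfap299. Unc5cl, the first, stood at 537 CPM against 0.664 outside, a ratio of 809, and Cfap299, the twentieth, at 2234 against 9.03 CPM, a ratio of 247. Dnah12, Spag17 and Dnah11 are in the rule. All genes of clustered nuclei count as used by the rule, so these ratios carry no test. Over all genes with UMIs in both sets the median ratio was 1.17. Of these genes 59.3% were above the level outside, and 6.52% were more than 10 times higher in ependymal nuclei.

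**Figure D2:**
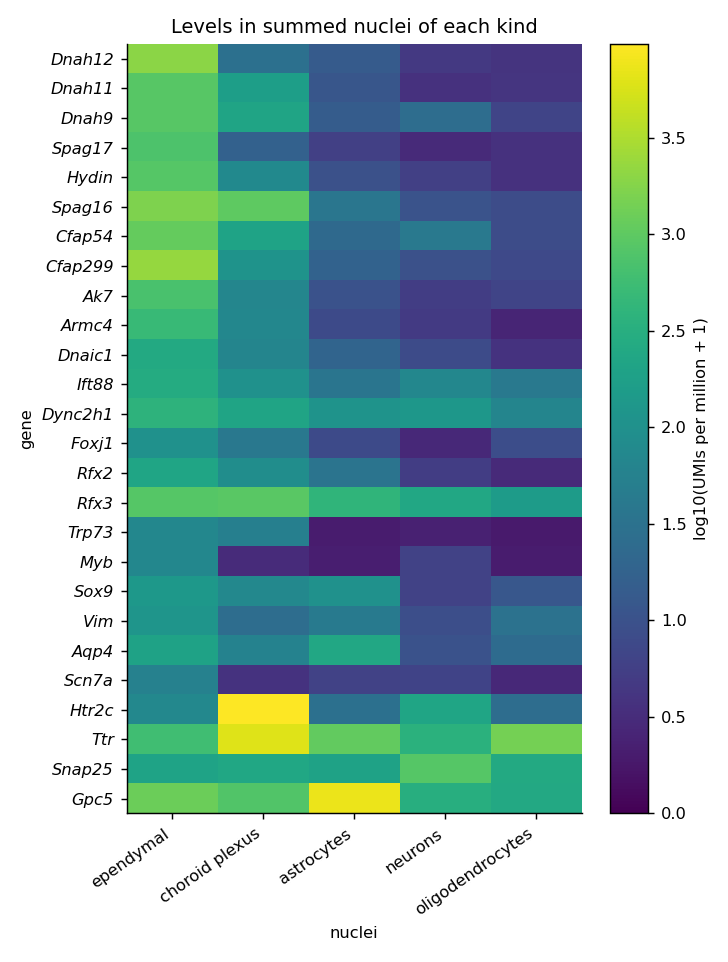
Rows are genes, columns are nuclei summed by kind, and the colour gives log10 of CPM plus 1. Axonemal genes from Dnah12 down to Dnaic1 are brightest in the ependymal column, Htr2c and Ttr in choroid plexus, Gpc5 in astrocytes and Snap25 in neurons.

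Axonemal dynein heavy chains, the motors of the cilium, were above the level outside the Glia nuclei in 13 of 15 and more than 10 times higher in 12. Dnah12 was at 1947 CPM against 4.06 outside, Dnah6 at 938 against 4.38, Dnah9 at 890 against 23.5 and Dnah11 at 890 against 3.14. By library Dnah12 ranged from 1521 to 2584 CPM with a median of 2025. Dnah7a, Dnah7b and Dnah7c are near-identical copies, and their counts are uncertain. Of the genes that assemble or dock dynein arms, 13 of 19 passed 10 times. Armc4, an outer arm docking protein, was at 490 against 3.88 CPM, Ccdc114, another docking protein, at 429 against 5.17, Dnaic1, an intermediate chain, at 267 against 7.59, and Lrrc6, an assembly factor, at 241 against 14.6.

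Central pair and radial spoke genes passed 10 times in 13 of 18, and Cfap genes in 19 of 25. Spag16, of the central pair, stood at 1618 CPM against 10.7 outside, Cfap54 at 1095 against 37.7, Hydin at 876 against 4.71 and Spef2 at 852 against 7.77. Cfap44 was at 808 against 11.4 CPM, Cfap61 at 685 against 6.73, Cfap43 at 553 against 7.07 and Cfap69 at 530 against 39.3. The transport genes, which also serve primary cilia, behaved otherwise: 25 of 28 intraflagellar transport and BBSome genes were higher than outside, but 0 passed 10 times and their median ratio was 2.73. Dync2h1, the retrograde motor, was at 372 against 124 CPM, and Ift88 at 287 against 66.2.

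Of 20 regulators of multiciliation in the matrix, 6 passed 10 times. Foxj1 was at 103 CPM against 2.44 outside, Rfx2 at 222 against 5.92, Trp73 at 70.3 against 1.28 and Myb at 69.0 against 4.73. Rfx3 was broader, at 860 CPM in ependymal nuclei, 924 in choroid plexus nuclei and 249 outside, and Rfx4 was higher in astrocytes (332 CPM) than in ependymal nuclei (222 CPM). Ulk4 was at 420 against 86.1 CPM. Mcidas, which acts early in making multiciliated cells, had a UMI in 2 of 661 nuclei.

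In choroid plexus nuclei Spag16 was at 983 CPM and Dnah9 at 210. Ccdc114 was at 340 CPM there against 429 in ependymal nuclei, and Cfap69 at 354 against 530. Of the dynein assembly and docking genes 19 of 19, and of the Cfap genes 24 of 25, were lower there than in ependymal nuclei. The 6 ciliary genes of the rule were there at 268 (Dnah6), 202 (Cfap54), 173 (Dnah11), 28.4 (Dnah12), 16.3 (Spag17) and 27.7 CPM (Tmem212), and their lower level follows in part from how the nuclei were divided. Thinned to 1000 UMIs, Dnah12 was expected in 80.6% of ependymal nuclei and 1.90% of choroid plexus nuclei, and Dnah6 in 60.2% and 25.8%. The unthinned shares were 95.01% and 4.18% for Dnah12, and 85.8% and 52.6% for Dnah6, at median depths of 2565 and 2713 UMIs. In neurons, which lack motile cilia, Dnah12 was expected in 0.335% of nuclei at 1000 UMIs and Dnah6 in 0.416% (1.31% and 1.68% unthinned, median 3926 UMIs). In the other direction, Ttr was seen at 1000 UMIs in 48.3% of ependymal nuclei, 33.6% of neurons, 62.7% of astrocytes and 67.5% of oligodendrocytes, and its share in ependymal nuclei lies within that range.

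Support and identity genes outside the axoneme were less distinct. Sox9 stood at 132 CPM against 10.8 outside and Vim, an intermediate filament gene, at 119 against 15.2. In astrocytes and choroid plexus nuclei Sox9 was at 101 and 71.7 CPM, and Vim at 43.6 and 25.6 CPM. The median ratio was 3.43 over 20 niche and tanycyte genes, 2.95 over 19 water and solute transport genes and 1.01 over 26 polarity and adhesion genes. The 20 niche and tanycyte genes summed to 796 CPM in ependymal nuclei, below 985 CPM in astrocytes and 1473 CPM in choroid plexus nuclei. Slc1a2 (1153 CPM) and Gpc5 (1250 CPM) were lower than in astrocytes (5826 and 7411 CPM). Of the 6 tanycyte markers, 5 were above the level outside, as were 59.3% of all genes, and Crym was below. The 6 summed to 132 CPM in ependymal nuclei, 170 CPM in astrocytes and 50.6 CPM in choroid plexus nuclei. Scn7a was at 55.2 against 5.22 CPM outside, Rax at 1.29 against 0.196 and Gpr50 at 0.862 against 0.250 CPM, and Rax had a UMI in 3 nuclei. All 4 markers given for these nuclei and all 11 other ependymal markers were above the level outside, 10 of the 11 by more than 10 times. The 4 are genes of the rule, so their height was fixed by the choice of nuclei, and the 11 describe the same clustered nuclei. The 6 microglial markers summed to 215 CPM against 133 outside. Of them Cx3cr1 (130 against 20.4 CPM) and C1qa (6.90 against 4.60 CPM) were above the level outside, and Tmem119 had 0 UMIs.

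Since cilium genes stood high together and RFX factors were detected, the promoters were searched for 3 motifs on both strands, in the 300 bases from 250 before to 50 after each start (RefSeq, GRCm38.p6). The X-box was written GTTNCC, then 1 to 3 N, then GGNAAC, the RFX half-site GTTGCCA and the forkhead motif TGTTTAC. Of 105 genes of the cilia lists 87 had a promoter in the table, and of the 50 genes with the largest ratios 40 had one. The half-site was in 23.0% of the cilia list promoters and in 6 of the 40 leading ones, against 5.07% of 17302 promoters of genes in the matrix. The X-box was in 4.60% and 7.50%, against 0.988%, and the forkhead motif in 4.60% and 7.50%, against 3.52%. A half-site can lie inside an X-box, as in Iqca, so the counts overlap. None of the motifs was found for the 5 of the 6 ciliary rule genes that had a promoter in the table. These are matches of letters, with no test and no reading of binding.

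The 7 promoters with an X-box are shown because they hold the strictest of the motifs, each as the 63 or 64 bases around it on the gene's strand, with the X-box in capitals. Ccdc180, Ak9 and Iqca are among the 50 leading genes, and the others come from the cilia lists.
Ccdc180, chr4:45890278-45890341, plus strand: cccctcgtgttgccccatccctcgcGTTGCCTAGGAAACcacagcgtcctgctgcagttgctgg
Ak9, chr10:41303898-41303961, plus strand: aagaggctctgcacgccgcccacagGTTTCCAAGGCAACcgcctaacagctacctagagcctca
Iqca, chr1:90153498-90153561, minus strand: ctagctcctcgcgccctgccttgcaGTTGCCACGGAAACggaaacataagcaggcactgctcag
Ccdc151, chr9:22002630-22002693, minus strand: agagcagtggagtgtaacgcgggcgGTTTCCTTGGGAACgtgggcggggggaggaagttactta
Cfap298, chr16:90934999-90935062, minus strand: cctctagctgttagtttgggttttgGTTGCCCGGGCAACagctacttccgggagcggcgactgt
Ift57, chr16:49699209-49699271, plus strand: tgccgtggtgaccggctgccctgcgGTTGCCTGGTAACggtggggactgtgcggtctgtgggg
Bbs7, chr3:36613472-36613535, minus strand: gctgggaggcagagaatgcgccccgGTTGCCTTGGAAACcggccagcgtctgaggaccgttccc
Among these 7 genes Ak9, an adenylate kinase, was at 617 CPM in ependymal nuclei against 2.38 outside, Ccdc180 at 278 against 0.731 and Iqca at 225 against 1.56. Ccdc151, a dynein arm docking gene, was at 70.3 against 5.80 CPM, and Cfap298 at 25.0 against 8.43. The transport genes Ift57 and Bbs7 stood at 99.1 against 39.7 and at 87.9 against 32.9 CPM. In choroid plexus nuclei Ak9 was at 149 CPM, Ccdc180 at 3.12, Iqca at 13.9, Ccdc151 at 19.1, Cfap298 at 19.4, Ift57 at 56.5 and Bbs7 at 36.4 CPM.

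Malat1 (chr19:5795690-5802672, minus strand, mm10) is the target of the oligonucleotides and no part of the rule. Its share of the UMIs of a library's ependymal nuclei was 7.66%, 7.89% and 9.92% in ATV:BACE1 replicates 1, 4 and 5. In nonTV:Malat1 it was 6.68%, 7.99% and 8.16%, in OTV:Malat1 6.17%, 5.40% and 7.25%, and in Malat1 ASO 7.81% and 8.40% (replicates 1 and 5). The OTV:Malat1 libraries were all below the 3 control libraries and both Malat1 ASO libraries, but overlapped nonTV:Malat1. Means were 8.49 ± 1.24% (SD, n = 3) in ATV:BACE1, 7.61 ± 0.811% (n = 3) in nonTV:Malat1, 6.27 ± 0.933% (n = 3) in OTV:Malat1 and 8.10 ± 0.416% (n = 2) in Malat1 ASO.

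The lower share after OTV:Malat1, 73.9% of the control's, did not pass the test across genes. edgeR's quasi-likelihood test over 6686 genes put the log2 change at -0.48 (SE 0.15; adjusted p = 0.552, unadjusted p = 0.00313). Exact two-sided permutation of the 3 against 3 library shares gave p = 0.1 (0.333 after Benjamini-Hochberg over 5 contrasts), the smallest p that this design can give. Non-overlap with a lower level was met by 4.82% of all genes in this contrast. Within batches the log2 ratio of shares to the control was -0.31, -0.55 and -0.45 for replicates 1, 4 and 5. To nonTV:Malat1 it was -0.11, -0.57 and -0.17 for the same replicates. The edgeR changes of nonTV:Malat1 and Malat1 ASO against the control were -0.18 and -0.09, and OTV:Malat1 against those groups gave -0.29 and -0.38, all with adjusted p of 0.987 or more. Leaving out single libraries moved nonTV:Malat1 against the control from -0.27 to -0.04, the latter without ATV:BACE1 replicate 5 (-0.08 without nonTV:Malat1 replicate 1), and OTV:Malat1 against nonTV:Malat1 from -0.42 to -0.19, the latter without OTV:Malat1 replicate 4.

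The difference was smaller without called doublets. Without them the Malat1 share was 6.38%, 6.69% and 10.1% in the control libraries and 6.24%, 5.87% and 7.50% after OTV:Malat1, so that the groups overlapped, and the log2 change was -0.26 (exact p = 0.5 for the shares). The largest control value was that of replicate 5, where 23 ependymal nuclei were left. Within batches the log2 ratio was -0.03, -0.19 and -0.43 for replicates 1, 4 and 5. Over pooled nuclei the Malat1 share of called doublets and of the others was 8.99% and 7.25% in ATV:BACE1, 7.58% and 7.54% in nonTV:Malat1, 5.36% and 6.34% in OTV:Malat1, and 8.35% and 8.08% in Malat1 ASO. Pooled doublets thus stood above the other nuclei in the control and below them after OTV:Malat1. By library, the share fell without called doublets in control replicates 1 and 4 but rose in replicate 5, from 9.92% to 10.1%. It rose in each OTV:Malat1 library. The part of doublets in the result was not tested further.

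**Figure D3:**
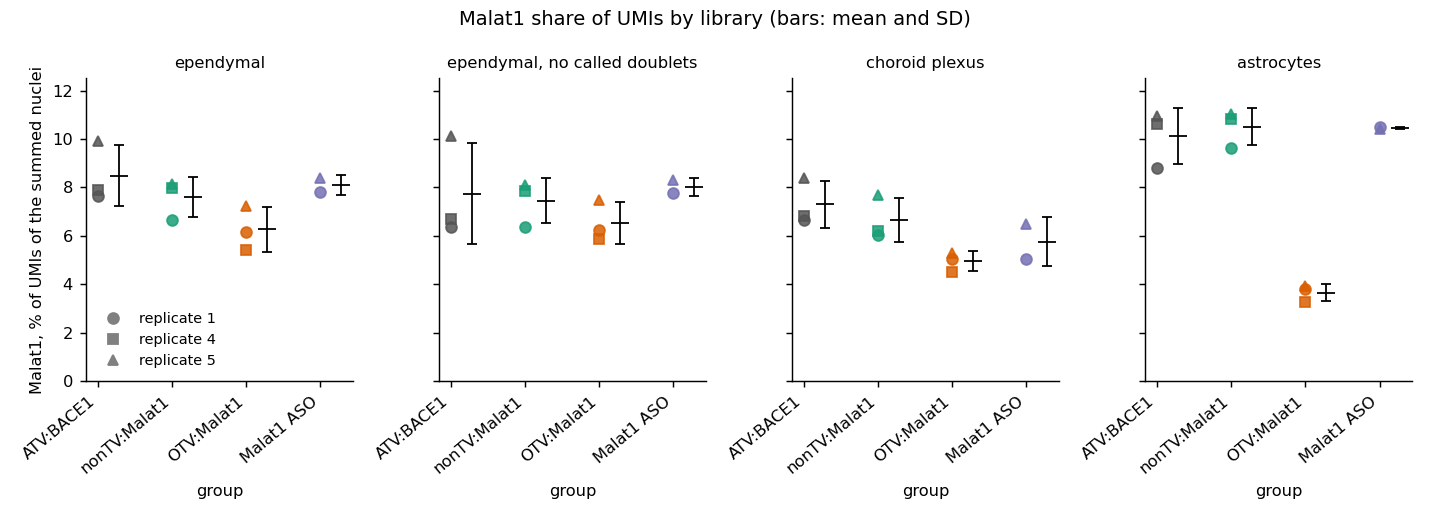
Malat1 as a percent of the UMIs of summed nuclei, with 1 point a library, shapes for replicates 1, 4 and 5, and the mean with SD beside them. In ependymal nuclei the 3 OTV:Malat1 points (5.40% to 7.25%) lie just under the control points (7.66% to 9.92%) and mix with them without called doublets, whereas in astrocytes they lie between 3.25% and 3.92% and all other groups at 8.80% or more.

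The same comparison was made nucleus by nucleus. Nuclei with at least 1000 UMIs were thinned to 1000. Shallower nuclei left out were 8.16% in ATV:BACE1, 4.81% in nonTV:Malat1, 4.71% in OTV:Malat1 and 6.09% in the free ASO group. The median thinned count over pooled nuclei was 71 in ATV:BACE1, 69 in nonTV:Malat1, 57 in OTV:Malat1 and 78 in Malat1 ASO, and 0 nuclei lacked Malat1. The lowest count was 14, in OTV:Malat1 replicate 4.

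A nucleus was called low at or under 48.8 UMIs, the mean of the 5th percentiles of the control libraries. Low nuclei were 25.0%, 39.7% and 21.1% of OTV:Malat1 replicates 1, 4 and 5, and 11.4%, 5.56% and 6.90% of the same control replicates. They were 20.3%, 15.1% and 10.7% in nonTV:Malat1 and 4.55% and 9.38% in Malat1 ASO. OTV:Malat1 was above every other library, with a mean of 28.6 ± 9.83% against 7.96 ± 3.08% in the control (SD, n = 3 each; exact two-sided permutation p = 0.1, the smallest possible, adjusted 0.25). The threshold comes from the control libraries, and unthinned shares gave the same order of these 2 groups. Without called doublets the shares were 21.9%, 32.1% and 19.4% in OTV:Malat1 and 14.6%, 6.90% and 10.5% in the control, still without overlap (exact p = 0.1, adjusted 0.333), while nonTV:Malat1, at 22.4%, 15.4% and 11.5%, then overlapped OTV:Malat1.

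**Figure D4:**
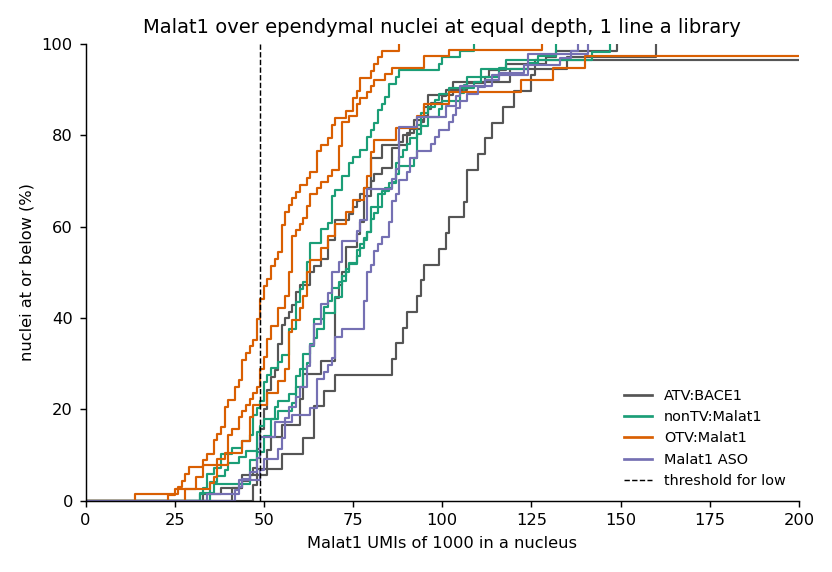
Cumulative share of ependymal nuclei (y axis, %) against Malat1 UMIs of 1000 in a nucleus (x axis, shown up to 200), with 1 line a library coloured by group and a dashed line at the threshold of 48.8 UMIs. At the threshold the 3 OTV:Malat1 lines are the highest, at 21.1% to 39.7%.

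The same libraries gave other nuclei to set beside the ependymal ones. In choroid plexus nuclei the Malat1 share was 7.30 ± 0.959% in ATV:BACE1, 6.65 ± 0.916% in nonTV:Malat1, 4.96 ± 0.400% in OTV:Malat1 (SD, n = 3 each) and 5.77 ± 1.01% in Malat1 ASO (n = 2). Both Malat1 ASO libraries, like those of OTV:Malat1, were below every control library, and the 2 groups overlapped. Without called doublets the Malat1 ASO libraries overlapped the control (exact p = 0.6), while OTV:Malat1, at 69.6% of the control's mean, did not (exact p = 0.1, adjusted 0.5). The log2 change of OTV:Malat1 against ATV:BACE1 differed between ependymal and choroid plexus nuclei by 0.11 (SE 0.19, edgeR interaction with library as block, adjusted p = 0.999), so no difference was detected at this error. The value was 0.38 without called ependymal doublets (choroid plexus ones stayed in), and 0.17 and 0.20 without ATV:BACE1 replicate 4 or OTV:Malat1 replicate 4, with adjusted p of 1.00 in each. The library differences of log2 CPM, ependymal minus choroid plexus, were 0.29, 0.26 and 0.45 in OTV:Malat1 and 0.20, 0.21 and 0.24 in the control, with no overlap (exact p = 0.1, adjusted 0.5). They were 0.63 and 0.37 in Malat1 ASO, also above the control (exact p = 0.2, adjusted 0.5), and 0.14, 0.37 and 0.08 in nonTV:Malat1.

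In astrocytes the share went from 10.1 ± 1.16% in ATV:BACE1 to 3.66 ± 0.358% in OTV:Malat1 (SD, n = 3 each), and outside the Glia nuclei from 7.79 ± 0.509% to 4.65 ± 0.575%. The log2 CPM of Malat1 in ependymal minus astrocyte nuclei of the same library was 0.69, 0.73 and 0.89 in the 3 OTV:Malat1 libraries. It was -0.20, -0.43 and -0.14 in ATV:BACE1, -0.53, -0.44 and -0.44 in nonTV:Malat1, and -0.42 and -0.31 in Malat1 ASO. The Malat1 share of UMIs was thus higher in ependymal nuclei than in astrocytes in every OTV:Malat1 library and lower in every other library. These are shares and not amounts in a nucleus, as the median depth was 2565 UMIs in ependymal nuclei and 1402 in astrocytes.

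The edgeR interaction with library as block was 1.31 (SE 0.26) for OTV:Malat1 against nonTV:Malat1, with an adjusted p of 0.0224, where 0.024% of 12520 genes were called. Against ATV:BACE1 it was 1.09 (SE 0.26, adjusted p = 0.328, unadjusted 9.74e-05), where 0.00799% were called, and against Malat1 ASO 1.22 (SE 0.29, adjusted p = 0.106), where 0.016% were called. In the comparison with choroid plexus nuclei 0.0998% of 8020 genes were called for OTV:Malat1 against Malat1 ASO, and Malat1 was not among them. The call against nonTV:Malat1 was lost with an adjusted p of 0.0592 when members needed 5 UMIs more of ciliary genes, and of 0.547 without called doublets among the ependymal nuclei (astrocyte ones stayed in), where the difference was 1.40. Leaving out any of 3 libraries, ATV:BACE1 replicates 1 and 5 and Malat1 ASO replicate 5, ended this call too (adjusted p up to 0.210). limma on the library differences gave 1.24 with adjusted p of 0.999, and 0.997 with the replicate block. That fit set a gene's spread partly by genes of like mean difference, whatever their level, so its p-values cannot decide on Malat1. The SD of the Malat1 difference within a group was 0.053 to 0.15. Exact permutation of the library differences gave p = 0.1 against ATV:BACE1 and against nonTV:Malat1, the smallest possible (adjusted 0.167). nonTV:Malat1 against ATV:BACE1, with a difference of -0.21 and no overlap, reached the same exact p and adjusted p.

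Ependymal nuclei made up 0.636%, 0.413% and 0.341% of the nuclei of ATV:BACE1 replicates 1, 4 and 5, and 0.463 ± 0.154% on average. In nonTV:Malat1 the share was 0.754 ± 0.106% and did not overlap the control (exact p = 0.1, adjusted 0.5). OTV:Malat1 had 0.748%, 0.928% and 0.303%, a range that held the control's, and Malat1 ASO had 0.501% and 0.667%. Of Glia nuclei, ependymal ones were 35.3 ± 5.08% in ATV:BACE1, 44.0 ± 3.30% in nonTV:Malat1 and 48.6 ± 9.09% in OTV:Malat1 (SD, n = 3 each), and both Malat1 conjugate groups were above every control library (exact p = 0.1 each, adjusted 0.25). The Malat1 ASO libraries were at 34.3% and 59.0%, on either side of the highest control library at 38.3% (exact p = 0.6). Without called doublets, in numerator and denominator, the share of all nuclei was 0.365 ± 0.0750% in ATV:BACE1, 0.700 ± 0.130% in nonTV:Malat1 and 0.593 ± 0.263% in OTV:Malat1 (SD, n = 3 each), where nonTV:Malat1 did not overlap the control and OTV:Malat1 did (exact p = 0.1 and 0.3). The Malat1 ASO libraries, at 0.454% and 0.682%, then lay above every control library (exact p = 0.2, the smallest possible). A ventricular lining is a small target of dissection, and no label gives its area in a sample. Its part in these shares was not tested.

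Few genes were called between groups at this depth. Of 6686 genes tested with edgeR, 1 fell in OTV:Malat1 against ATV:BACE1 (0.015%) and 1 in OTV:Malat1 against Malat1 ASO (0.015%). No gene was called in nonTV:Malat1 or Malat1 ASO against ATV:BACE1, or in OTV:Malat1 against nonTV:Malat1, where 244 (3.65%), 199 (2.98%) and 244 genes (3.65%) had an unadjusted p under 0.05 with edgeR. That share was 5.37% for OTV:Malat1 against ATV:BACE1 and 4.35% against Malat1 ASO. Libraries that did not overlap were found, higher and lower, in 4.97% and 4.89% of genes for nonTV:Malat1 and in 9.18% and 8.11% for Malat1 ASO, each against ATV:BACE1. For OTV:Malat1 they were 4.14% and 4.26% against nonTV:Malat1, and 9.83% and 10.5% against the free ASO. DESeq2, over 20625 genes, called 0 in all 5 contrasts. It gave 189, 93, 93, 120 and 146 genes an unadjusted p under 0.05. The order is OTV:Malat1, nonTV:Malat1 and Malat1 ASO against ATV:BACE1, then OTV:Malat1 against nonTV:Malat1 and, last, the free ASO.

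Shisa9, an auxiliary subunit of AMPA-type glutamate receptors, was the gene that fell against the control. It was at 141, 155 and 136 CPM in ATV:BACE1 replicates 1, 4 and 5, and at 25.8, 30.3 and 43.3 CPM in OTV:Malat1, with nonTV:Malat1 at 79.2 to 120 and Malat1 ASO at 82.5 and 102 CPM. The OTV:Malat1 libraries were the lowest of the 11, and the log2 change was -2.23 (SE 0.33, edgeR adjusted p = 0.00169). It had 208 UMIs in all ependymal nuclei and stood at 298 CPM in neurons, above its 89.7 CPM in ependymal nuclei. Without called doublets it stood at -1.94 (edgeR adjusted p = 0.999), and without OTV:Malat1 replicate 1 at -2.06 (0.0818). Over cluster 8 nuclei of any name with the larger ciliary sum it was -0.85 (adjusted p = 1.00).

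Klhl2, a substrate adaptor of a ubiquitin ligase, fell in OTV:Malat1 against Malat1 ASO. It was at 62.7, 30.3 and 52.0 CPM in OTV:Malat1 and at 206 and 159 CPM in Malat1 ASO, while ATV:BACE1 was at 104, 56.3 and 50.8 CPM. The control overlapped OTV:Malat1 here. The log2 change was -1.93 (SE 0.34, edgeR adjusted p = 0.0308), and -2.25 with an adjusted p of 0.780 without called doublets. Leaving out nonTV:Malat1 replicate 4, either Malat1 ASO library, or 1 of OTV:Malat1 replicates 1 and 4 also ended the call, with adjusted p from 0.0515 to 0.911. Without OTV:Malat1 replicate 5 this contrast had 9 calls.

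With the replicate number, which is the batch, as a block, 10 genes were called in OTV:Malat1 against ATV:BACE1, 9 of them lower. These were Shisa9, Cntn5, Sgcz, Cntnap2, Phactr1, Lrrc7, Grm5, Ryr3 and Gm26871, of which Cntn5, a contactin, Cntnap2, a neurexin relative, and Grm5, a glutamate receptor, are known for their roles in neurons. Gm47283 was the 1 higher, and was also called in Malat1 ASO against ATV:BACE1. Its changes in these 2 contrasts were 1.90 and 2.51 with the block, and 1.37 and 1.62 without called doublets, where it was not called. Ryr3, a calcium release channel, was the 1 gene called against nonTV:Malat1 with the block, and Klhl2 remained the 1 called against Malat1 ASO. Without the block Cntn5 and Ryr3 had changes of -1.55 and -1.56 against the control with an adjusted p of 0.188 for both.

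The neuron marker sum is given beside these genes. Without Csmd1 the other 9 neuron markers summed to 3324, 3634 and 3523 CPM in the control, 2403, 1895 and 4201 after OTV:Malat1, 2955 to 3923 in nonTV:Malat1 and 3438 to 3955 CPM in Malat1 ASO. The library with the highest sum, OTV:Malat1 replicate 5, when left out, raised the count of called genes against the control to 19, and leaving out OTV:Malat1 replicate 1 lowered it to 0. Leaving out ATV:BACE1 replicate 1 gave 2. Without called doublets the control had 1119, 1122 and 1788 CPM of these markers and OTV:Malat1 952, 1876 and 2726 CPM, 0 genes were called in all 5 contrasts over 4551 genes (158, 154, 226, 125 and 181 with an unadjusted p under 0.05, in the order used above), and Cntn5 and Ryr3 stood at 0.0065 and 0.25 on the log2 scale. Phactr1 and Grm5 were then at 0.52 and 1.07, Cntnap2 and Lrrc7 at -0.12 and -0.11. Sgcz was at -1.57 (-1.39 with all nuclei and the block) and Ryr3 against nonTV:Malat1 at -1.94 (-1.75 with all nuclei and the block). The part of neuronal RNA in these changes was not tested.

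Further genes with the lowest p in each contrast missed the threshold. Against ATV:BACE1 these were Gm26871 (-1.64) in OTV:Malat1 (log2 change), Efhc2 (1.58), March1 (-1.29), Atp13a5 (1.84), Bnc2 (2.63) and Zmynd12 (1.199) in nonTV:Malat1, and Gm47283 (2.43), Mt2 (-1.85), Colec12 (1.82), Klhl2 (1.204) and Irs2 (1.23) in Malat1 ASO. As single libraries were left out, Gm47283 in Malat1 ASO ranged from 1.35 to 3.13 and Colec12 from 1.18 to 2.61. Efhc2 encodes an axonemal protein, and Bnc2 is also on the leptomeningeal marker list. In OTV:Malat1 against nonTV:Malat1 they were Ryr3 (-1.73), Shisa9 (-1.67), 9530059O14Rik (-1.65), S100pbp (-1.33) and Cetn2 (-2.11), the last a centrin. Against Malat1 ASO they were 9530059O14Rik (-1.99), Gm26871 (-1.82) and Ryr3 (-1.67). Gm47283 (chrY:90784738-90816464, plus strand) lies in the pseudoautosomal region, which both sexes carry, and was at 23.5, 21.1 and 50.8 CPM in the control, 136, 94.7 and 86.6 CPM after OTV:Malat1, and 259 and 75.0 CPM in Malat1 ASO.

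The cilium lists include genes of the rule (Dnah12, Dnah6, Dnah11, Spag17 and Cfap54), whose height in these nuclei was chosen. Of the genes tested, 13 dynein heavy chains, 16 assembly and docking genes, 17 central pair and spoke genes, 23 Cfap genes, 23 transport genes and 11 regulators, 0 rose and 0 fell in OTV:Malat1 against ATV:BACE1, where 0.015% of all genes were called, so that lists of this size would be near 0 in any case. Their median log2 changes were 0.24, 0.20, 0.23, 0.31, 0.16 and 0.16 in that order, against 0.00 over all genes. Libraries did not overlap with a higher level in 2, 1, 1, 4, 6 and 1 of them, against 4.64% of all genes. Against Malat1 ASO the same counts were 7, 3, 5, 4, 4 and 2, against 9.83% of all genes, and 0 members were called. The level of Dnah12 was 1888 ± 603 CPM in ATV:BACE1, 1965 ± 184 in nonTV:Malat1, 2151 ± 64.5 in OTV:Malat1 (SD, n = 3 each) and 1790 ± 3.11 CPM in Malat1 ASO (n = 2). All groups overlapped the control, whose replicates 1, 4 and 5 were at 1521, 2584 and 1558 CPM.

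All 6 medians were nearer 0 without called doublets. On untransformed library CPM with 10 CPM added, so without TMM scaling, the medians of the same 6 lists were 0.26, 0.22, 0.19, 0.32, 0.23 and 0.18 with all nuclei and -0.04, 0.01, 0.01, 0.09, 0.20 and 0.05 without called doublets (median of all genes 0.04 and 0.02). The dynein heavy chains thus changed sign. In nonTV:Malat1 against ATV:BACE1, which shares the control libraries, the edgeR medians were 0.20, 0.25, 0.07, 0.16, 0.12 and -0.03.

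**Figure D5:**
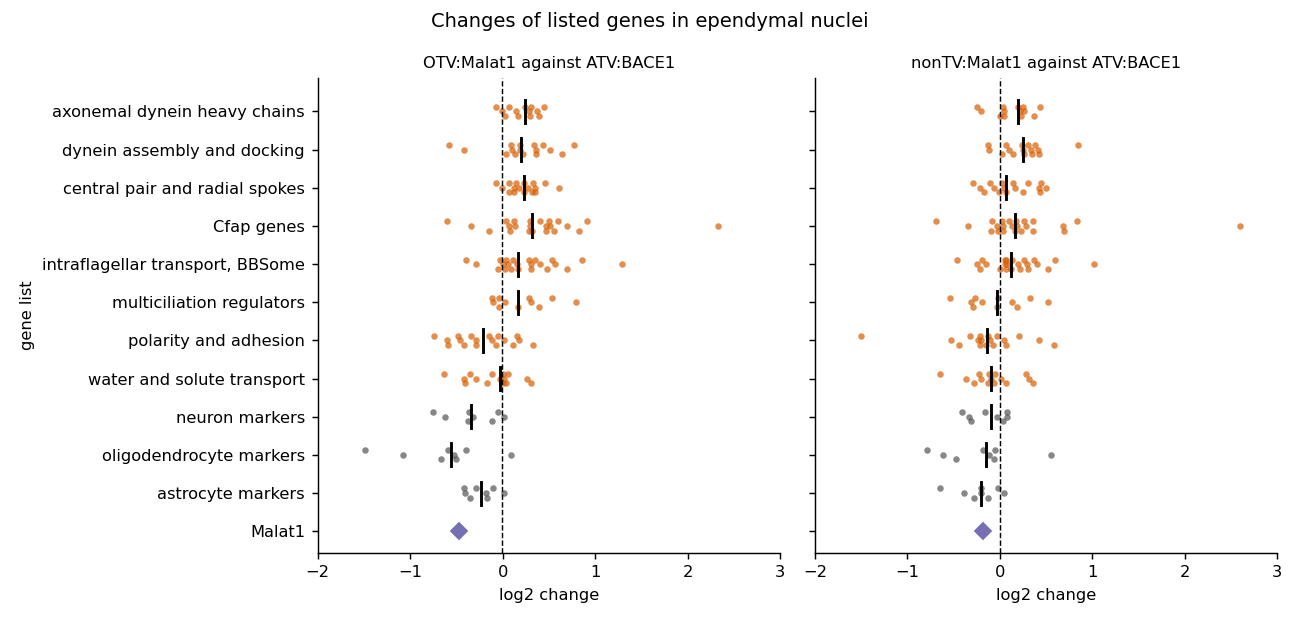
Each point is a gene tested by edgeR, placed by its log2 change on the x axis and by list on the y axis; short bars are list medians, the dashed line the median of all 6686 genes, orange points lists of ependymal function, grey points markers of other cells, and the diamond Malat1. In OTV:Malat1 against ATV:BACE1 the bars of the 6 cilium lists lie at 0.16 to 0.31, and no gene of these lists was called.

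Lists with other roles are given by their medians in OTV:Malat1 against ATV:BACE1, where no member was called, against 0.015% of all genes. The median was -0.22 over 18 polarity and adhesion genes, where Ctnna2, an alpha catenin, was at -0.74 (adjusted p = 0.606), and -0.03 over 15 transport genes including Slc1a2 at -0.36. The 9 niche genes had a median of -0.16. Among 12 genes of uptake and RNase H the median was -0.14, with App at -0.38. Tfrc, the mouse gene of the receptor that the carrier binds in its human form, had 37 UMIs in all ependymal nuclei, and Rnaseh1, the nuclease that cuts ASO-bound RNA, had 25, which is too few to compare groups.

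Of 14 nuclear long non-coding RNAs and neighbours of Malat1 the median was -0.19, with Meg3 at -0.22 and Snhg11 at -0.18. The 7 stress and interferon genes that passed the filter, of 34 in the matrix, had a median of -0.31 with Hsp90aa1 at -0.25 and Hspa8 at -0.31. Markers of other cells had no called member either: the medians were -0.34 over 8 neuron, -0.56 over 8 oligodendrocyte and -0.23 over 8 astrocyte markers. Libraries did not overlap, with a lower level in OTV:Malat1, for 3 of the 8 oligodendrocyte markers, against 4.82% of all genes. Called doublets, which were kept here, held 1478 CPM of these 8 markers against 1185 CPM in the other ependymal nuclei. The part of doublets in this difference was not tested. Of 6 endothelial markers 3 passed the filter, all with negative values and a median of -1.22. The 1 of 7 pericyte and smooth muscle markers that passed, Atp13a5, was at 1.72 and ranged from 13.4 to 68.6 CPM by library. A gene this low can pass the filter through the libraries where it is high, so these signs and sizes are not read as changes. Oligodendrocyte markers summed to 1109 to 1605 CPM in the control and to 866 to 1171 CPM in OTV:Malat1.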

How the data were processed

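The members, gene lists and comparisons were chosen with earlier results of these data known. Per the submitters' processing notes, the authors used Cell Ranger 5.0.0, Seurat 4 and mm10. The deposited matrix holds UMI counts per gene and nucleus with no normalization, and its column sums equalled the deposited total count in 110304 nuclei. Per the file headers, the deposited metadata also give the mitochondrial percent and a prediction score as a fraction from 0 to 1 for each nucleus, with class, cluster, batch and doublet call. No source used here names the doublet tool. The lowest nucleus total was 499 UMIs, so nuclei had been filtered before deposit. Library totals were 33235994 to 43972886 UMIs, and ependymal nuclei held 115445 to 297810 of them, so low genes are imprecise. Within a group the replicates differ in labelled sex or age, so they come from different animals.

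UMI counts of the nuclei were summed per library and tested with edgeR 4.0.16 (glmQLFit, TMM, filterByExpr, R 4.3.3), all 4 groups in 1 fit without a block, adjusted over all genes of the fit by Benjamini and Hochberg at 0.05. The script was tested on simulated data first. For OTV:Malat1 against ATV:BACE1 it called 30 of 96 tested genes changed 2-fold and 86 of 94 changed 4-fold, with 4 false calls. A 2-fold change in these nuclei can thus be missed. Differences from choroid plexus and astrocyte nuclei were the class by group term with library as a block. CPM is UMIs scaled to 1000000 over the summed nuclei without scaling by gene length, so levels were not compared between genes. Single library values had exact two-sided permutation tests, with smallest p of 0.1 (3 against 3) and 0.2 (3 against 2). These tests did not use the pairing of samples by replicate number. Thinning was without replacement, and called doublets were kept. Positions are from GENCODE on mm10 and promoters from RefSeq, read with pandas 2.3.3 in Python 3.11.15 (matplotlib 3.10.9, scipy 1.17.1, numpy 2.4.6).

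The numbers pair samples because the metadata's batch goes with them. Deviations from group means over 6686 genes correlated at 0.053 to 0.235 for 15 same-numbered pairs and -0.153 to 0.0997 for 30 others. Named genes are Malat1, the rule's genes, the 20 leading genes, up to 4 members of each list with the highest mean CPM, all called genes, and otherwise the 5 with the lowest p in a contrast, of which some are not reported here. Genes called with the replicate block and further members (Foxj1, Trp73, Myb, Mcidas, Rax, Gpr50, Tmem119, Tfrc, Rnaseh1 and the genes with an X-box) were named after their values were seen. Alternatives were DESeq2 1.42.0, limma 3.58.1, other scaling, filters, memberships, thinning and left-out libraries.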

Additional observations from a re-analysis of the deposited data

Results flagged for a closer look

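The Malat1 change of OTV:Malat1 against nonTV:Malat1 differed between ependymal and astrocyte nuclei by 1.31 on the log2 scale, with the smaller fall in ependymal nuclei. It is listed because the test of the difference itself, the edgeR interaction with library as block, passed at an adjusted p of 0.0224. The difference was positive in 3 of 3 OTV:Malat1 libraries and negative in 3 of 3 nonTV:Malat1 libraries. The call was lost in 7 of 16 alternatives, and the value ranged from 1.23 to 1.40. Among these 7 was leaving out called doublets of the ependymal nuclei but not of the astrocytes (adjusted p = 0.547). Also among them was limma on the library differences without and with the replicate block (0.999 and 0.997). The limma p-values cannot decide on Malat1, because that fit set the spread partly by mean difference and not by level.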

How the results depend on the processing

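Malat1 in ependymal nuclei kept its direction and did not pass the threshold under 23 of 23 alternatives for OTV:Malat1 against ATV:BACE1 (-0.60 to -0.26). The replicate block was among them. Libraries with at least 20 nuclei and libraries with any nucleus only repeated the main fit, as each library held 33 to 79 ependymal nuclei. The same held for the other contrasts, except Malat1 ASO against ATV:BACE1. That contrast turned to 0.040 without called doublets, and ranged from -0.18 to 0.050 as single libraries were left out. Counts of changed genes, in the order OTV:Malat1, nonTV:Malat1 and Malat1 ASO against ATV:BACE1, then OTV:Malat1 against nonTV:Malat1 and, last, the free ASO, were 1, 0, 0, 0 and 1. They were 18, 1, 1, 4 and 9 with no filter on low counts (20626 genes), and 10, 0, 1, 1 and 1 with the replicate block. With DESeq2 (20625 genes), without called doublets and over all cluster 8 nuclei with the larger ciliary sum they were 0 in each. At a prediction score of at least 0.5 the count for OTV:Malat1 against nonTV:Malat1 was 1. Leaving out single libraries gave 0 to 19, 0, 0 to 1, 0 to 2 and 0 to 9. The third was 1 without Malat1 ASO replicate 5, and the fourth 2 without OTV:Malat1 replicate 5 and 1 without nonTV:Malat1 replicate 5 or either Malat1 ASO library. Ryr3 and Cntn5 turned to 0.25 and 0.0065 without called doublets. The cause was not tested.

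Where 1 Malat1 ASO library remained, it was assumed to vary like the other groups. The replicate block changed no other call. In the differences between kinds of nuclei, called doublets were left out of the ependymal nuclei only. The difference from choroid plexus nuclei for nonTV:Malat1 against ATV:BACE1 turned to 0.12 without called ependymal doublets and ranged from -0.089 to 0.057 as libraries were left out. The difference from astrocytes for Malat1 ASO against ATV:BACE1 turned to 0.085 without called ependymal doublets and ranged from -0.27 to 0.0066. For OTV:Malat1 against ATV:BACE1 it was 1.03 and called with total counts without TMM (adjusted p = 0.0108) and 1.00 to 1.14 with libraries left out, called without nonTV:Malat1 replicate 1 or 5. Against Malat1 ASO it was 1.14 and called (adjusted p = 0.0129), and 1.09 to 1.36, called without the first OTV:Malat1 replicate and without nonTV:Malat1 replicate 1 or 5. Against nonTV:Malat1 it was no longer called at 1.33 (5 UMIs more), 1.40 (no called ependymal doublets) and 1.24 (limma on library differences, with and without the replicate block), nor without ATV:BACE1 replicate 1 or 5 or Malat1 ASO replicate 5, with 1.28 to 1.38 over left-out libraries and adjusted p from 0.00221 to 0.210. limma's adjusted p there was 0.997 to 0.999, which cannot decide on Malat1 for the reason given above.

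The share of ependymal nuclei in OTV:Malat1 minus nonTV:Malat1 turned to 4.57 percentage points with Glia nuclei as the denominator and ranged from -0.23 to 0.084 with libraries left out, and against Malat1 ASO from -0.058 to 0.25. Low-Malat1 nuclei in Malat1 ASO minus ATV:BACE1 were 0.963, 2.99 and 7.23 points at 500 UMIs, 2000 UMIs and unthinned, and -3.41 to 1.41 with libraries left out, where all libraries at 1000 UMIs gave a negative value.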
